A study of Mus musculus with 16 samples.

Results

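The hypoxia-inducible factor (HIF) targets and glycolysis genes described here are 33 genes measured in alveolar epithelial type II (AT2) cells of newborn mice. They were chosen by gene symbol, with no measured value in the rule, but with earlier results of these data known. They comprise 5 regulators of HIF, 13 glycolytic enzymes and 15 other HIF targets. All 33 were among the 20725 genes named on the arrays. RNA was read on 16 one-colour Agilent arrays labelled with Cy3, from pups at postnatal day 3. The titles give 2 Fgf10+/- hyperoxia samples, 4 Fgf10+/- normoxia samples, 6 wild-type hyperoxia samples and 4 wild-type normoxia samples, whereas the series text gives 4 per group. The titles and genotype labels were followed. Fgf10+/- pups are heterozygous for Fgf10, a growth factor made by lung mesenchyme, and no Cre or cell type limits the allele in the labels. Hyperoxia pups breathed 85% oxygen in a chamber between day 0 and day 3, and normoxia pups did not. Nothing in the sources used here says whether each sample came from its own pup or litter or how the cells were isolated, so p-values measure the spread between these samples.

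HIF is a transcription factor made of an oxygen-sensitive alpha subunit, encoded by Hif1a or Epas1, and a stable partner, Arnt. When oxygen is plentiful, prolyl hydroxylases such as those encoded by Egln1 and Egln3 modify the alpha subunit, the Vhl protein then marks it for breakdown, and HIF targets are transcribed less. Its targets include most enzymes that turn glucose into lactate, glucose and lactate carriers, the angiogenic factor Vegfa and genes that restrain mitochondria and growth. AT2 cells make surfactant and renew the alveolar lining, and newborn mice kept in high oxygen serve to model bronchopulmonary dysplasia, a lung disease of preterm infants.

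All levels below are log2 intensities as the authors deposited them, already scaled so that the 16 arrays share 1 distribution. A difference of 1 is a 2-fold change, and levels of different genes are not compared, since each probe has its own response. Each gene stands for its brightest feature. The AT2 label was checked against the surfactant gene Sftpc, which was at the top of the scale on every array (15.95 to 15.98), and the mean of 12 AT2 markers, 10.47 to 11.78 over the 16 arrays. Club and secretory cell markers, 5 of 5 measured, averaged 9.93 to 14.53, so those transcripts were present in every sample. T cell and thymocyte markers, 12 of 12 measured, averaged 6.34, 7.05 and 6.08 in Fgf10+/- normoxia samples 1, 2 and 4 and 7.09 in wild-type normoxia sample 4, against 4.31 to 5.38 in the other 12. Wild-type normoxia sample 1 had the highest smooth muscle, pericyte and fibroblast mean, 10.29, against 7.60 to 9.44 elsewhere. In the Fgf10+/- normoxia group 3 of the 4 samples were thus high and sample 3, at 4.57, was low. Calls of members that rest on these samples are given with and without them. Medians over groups of members are not given without the 4 samples high in T cell markers. In bulk RNA, fewer cells of a type and less RNA per cell cannot be told apart.

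Averaged over genotypes, hyperoxia left 10 of the 33 members changed: 9 fell and 1 rose (limma, Benjamini-Hochberg adjusted p under 0.05 over 20725 genes). Among all genes, 6.14% fell and 4.97% rose in this comparison. Such shares are not given for the fits that leave samples out or add a covariate. The members that fell were Egln3 among the regulators, Pfkl, Hk2, Gapdh and Tpi1 among the glycolytic enzymes, and Ndrg1, Ddit4, Slc16a3 and Car9 among the other HIF targets. Hk1, the widely expressed hexokinase, was the member that rose. Of the 33 changes, 25 were negative and 8 positive, with a median of -0.29, against -0.06 over all genes, of which 56.5% were negative. Without the 4 libraries highest in T cell and thymocyte markers the count was 3 of 33, namely Hk1, Pfkl and Slc16a3.

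Within Fgf10+/- samples, 4 members fell and 0 rose, against 1.26% of all genes falling and 1.18% rising. These were Ndrg1, Ddit4, Slc16a3 and Pfkl. At an unadjusted p under 0.05, 10 of 33 members passed there, against 3462 of 20725 genes, Hk1 among them (0.82 ± 0.22 SE, limma adjusted p = 0.0551). Within wild type, 3 members fell, Car9, Ndrg1 and Pfkl, and Hk1 rose, against 1.36% of all genes falling and 1.77% rising. Ndrg1 and Pfkl passed in both genotypes. In a fit of the groups compared alone neither passed in Fgf10+/- (adjusted p = 0.0589 for Ndrg1 and 0.0525 for Pfkl), nor did Pfkl in wild type (0.063). The Fgf10+/- count rests on 2 hyperoxia samples: it was 0 without Fgf10+/- hyperoxia sample 1 and 1 without sample 2. Leaving out wild-type normoxia samples 1 and 4 together kept 9 of the 10 averaged calls, all but Tpi1. Within wild type that fit lost Ndrg1 and Car9 and called a member that did not pass above. The wild-type count was 3 in that fit and 1 without wild-type normoxia sample 2. Without the 4 libraries rich in T cell markers, which leaves 1 Fgf10+/- normoxia sample, it was 0 in Fgf10+/- and 1, Hk1, in wild type.

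**Figure D1:**
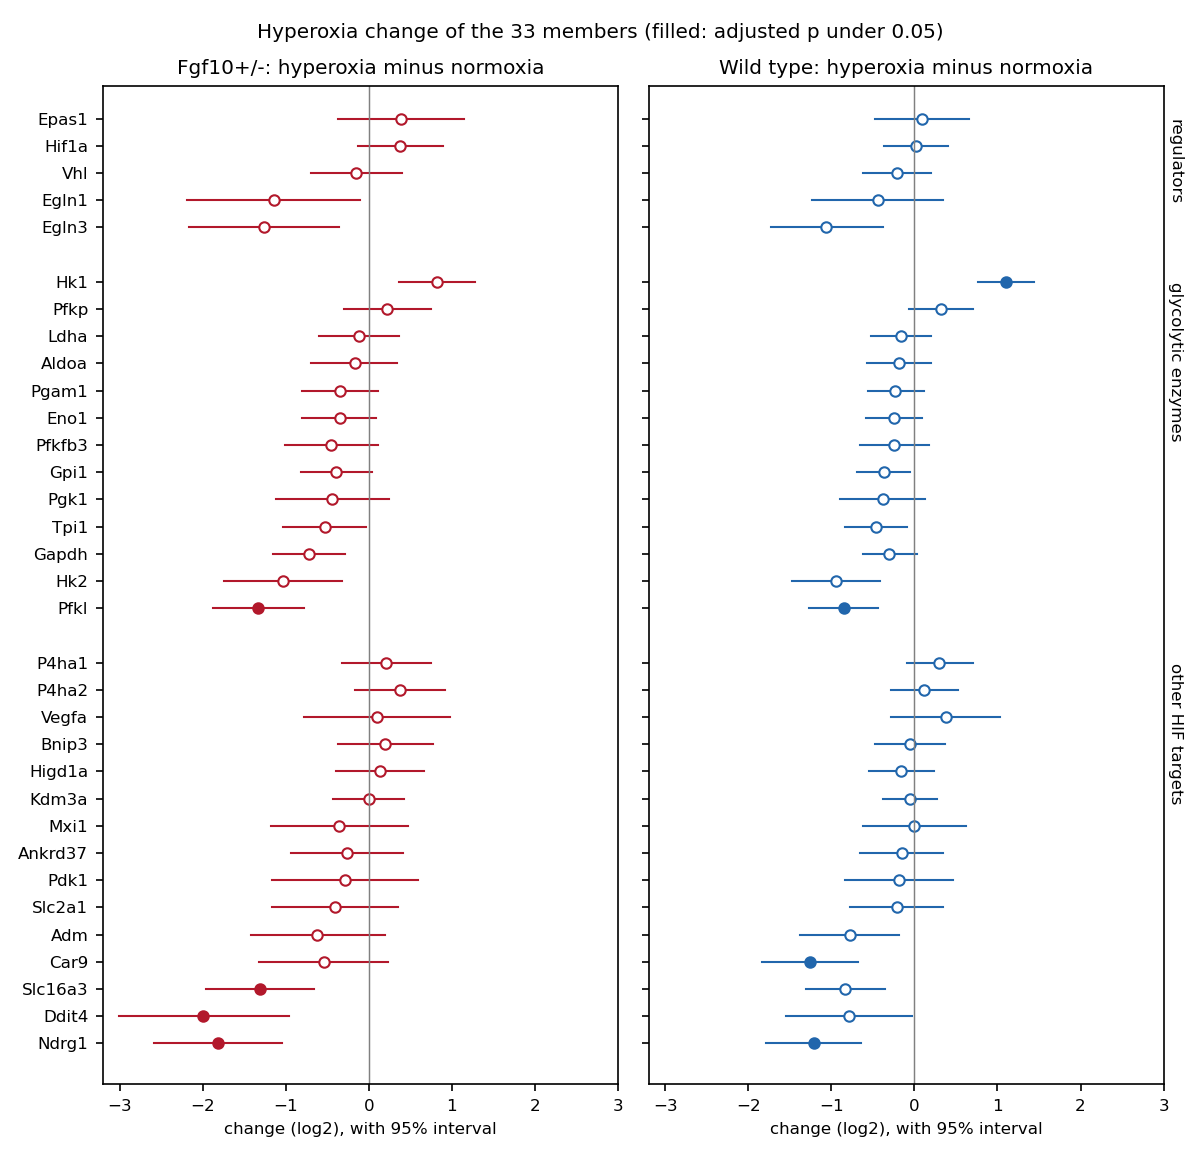
Change of each of the 33 members with hyperoxia (log2, hyperoxia minus normoxia, x axis) in Fgf10+/- (left) and wild type (right); points are limma estimates, bars are 95% intervals and filled points passed an adjusted p of 0.05. Most points lie left of 0, Hk1 lies to the right in both genotypes, and intervals in Fgf10+/- are wider.

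The regulators are taken first. Egln3, a HIF prolyl hydroxylase whose gene is itself a HIF target, fell by 1.16 ± 0.27 (SE) with hyperoxia averaged over genotypes, a 2.23-fold drop (limma adjusted p = 0.0105). Its level was 5.18 and 5.26 in Fgf10+/- hyperoxia samples, against 6.35, 7.33, 5.56 and 6.68 in Fgf10+/- normoxia samples. In wild-type hyperoxia samples the lowest, median and highest levels were 4.71, 5.01 and 5.64, against 6.19, 6.00, 5.67 and 6.85 in wild-type normoxia. Within each genotype the hyperoxia and normoxia samples did not overlap, although the difference did not pass there (adjusted p = 0.142 in Fgf10+/- and 0.0827 in wild type). The second Egln3 feature passed in Fgf10+/- (-1.79 ± 0.37, adjusted p = 0.023 over all features) and not in wild type (-0.63 ± 0.28, adjusted p = 0.257). The 4 highest normoxia levels, 6.35 to 7.33, belonged to the 4 samples highest in T cell markers, and the other 4 had 5.56 to 6.19. Without those 4 samples the Egln3 difference was -0.59 (adjusted p = 0.274), and the call was also lost without Fgf10+/- hyperoxia sample 1.

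Egln1, the main oxygen-sensing prolyl hydroxylase, was dim and showed a difference of -0.79 ± 0.31 (SE) averaged over genotypes that did not pass (adjusted p = 0.112). Vhl, which encodes the ubiquitin ligase subunit that binds hydroxylated HIF, showed -0.18 ± 0.16 (adjusted p = 0.54). The alpha subunit genes did not pass either: the difference was 0.20 ± 0.15 for Hif1a (adjusted p = 0.451) and 0.24 ± 0.22 for Epas1 (adjusted p = 0.556). Their intervals, -0.12 to 0.52 for Hif1a and -0.23 to 0.71 for Epas1, are those of the genotype average on the brightest feature, and in Fgf10+/- alone they reached up to 0.89 and 1.15. HIF alpha is regulated largely as a protein, which arrays do not measure.

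Promoter sequence is shown for the 6 called members with the smallest limma p and a promoter window. It shows the HIF core where it is present. Each window runs 250 bases before to 50 after an annotated start (RefSeq, GRCm38.p6), is printed 5' to 3' on the gene's strand, and has cores in capitals. The cores searched were ACGTG and GCGTG on both strands, so CACGT and CACGC mark the opposite strand, CACGTG would count on both, and neighbouring cores may overlap. Of 44 windows of 31 members, 34 held a core (77.3%), against 43.8% of 32851 windows of all genes. ACGTG alone was in 56.8% of member windows, against 19.6% of all. Member windows also had more G and C, a median of 64.8% against 52.7%. Among the 8 windows of members that fell, 7 held a core (87.5%), and the window of Tpi1 did not; among the 34 windows of members not called, 26 did (76.5%). A match is a description of the letters and not a binding site. Ndrg1 and Epas1 had no window among these.

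Glycolytic enzymes follow in pathway order. Hexokinases trap glucose in the cell as its phosphate. Hk1 rose by 0.96 ± 0.13 (SE) averaged over genotypes, 1.95-fold (limma adjusted p = 0.00027). Its level was 13.82 and 13.76 in Fgf10+/- hyperoxia, against 13.33, 12.61, 12.91 and 13.01 in Fgf10+/- normoxia. Wild-type hyperoxia samples had a lowest, median and highest of 13.69, 13.79 and 13.91, against 12.53, 12.71, 12.93 and 12.59 in wild-type normoxia. Every hyperoxia sample was above every normoxia sample. This rise belongs to the brightest of 3 Hk1 features: the second showed -0.39 ± 0.14 and the third -0.44 ± 0.33 in a fit of all 31439 named features, neither passing (adjusted p = 0.0893 and 0.455). With the mean of the 3 features in its place, the averaged Hk1 difference was 0.04 and the wild-type one -0.02. The annotated Hk1 starts, 2 on the minus strand, are both shown, and they differ in cores. No Hk1 feature was assigned to a start. The upstream start at chr10:62379859-62380158 has 0 cores, and the downstream start at chr10:62340372-62340671 has 5.
Hk1 upstream start: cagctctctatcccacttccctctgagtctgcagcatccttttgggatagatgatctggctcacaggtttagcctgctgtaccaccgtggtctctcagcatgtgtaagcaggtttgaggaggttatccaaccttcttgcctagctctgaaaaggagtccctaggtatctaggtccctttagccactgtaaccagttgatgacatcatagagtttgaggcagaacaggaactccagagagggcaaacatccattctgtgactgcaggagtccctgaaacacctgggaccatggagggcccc
Hk1 downstream start: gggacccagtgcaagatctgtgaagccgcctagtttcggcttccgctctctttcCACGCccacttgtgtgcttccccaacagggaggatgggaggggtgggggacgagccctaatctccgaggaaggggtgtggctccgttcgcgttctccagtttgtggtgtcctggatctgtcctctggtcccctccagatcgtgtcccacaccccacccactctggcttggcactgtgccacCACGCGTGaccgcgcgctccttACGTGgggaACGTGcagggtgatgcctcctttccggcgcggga

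Hk2, the inducible hexokinase and a classic HIF target, went the other way. It fell by 0.99 ± 0.21 (SE) averaged over genotypes, 1.98-fold (adjusted p = 0.00659). Its level was 6.10 and 5.51 in Fgf10+/- hyperoxia, against 7.09, 7.04, 6.39 and 6.83 in Fgf10+/- normoxia. The lowest, median and highest in wild-type hyperoxia were 4.96, 6.00 and 6.37, against 6.51, 6.97, 6.88 and 6.88 in wild-type normoxia. No hyperoxia sample reached the lowest normoxia sample, although 6.37 and 6.39 lie close. The call was lost without Fgf10+/- hyperoxia sample 2 and without the 4 T cell-rich libraries (-0.75, adjusted p = 0.211). The Hk2 window, chr6:82774405-82774704 on the minus strand, holds 2 cores.
Hk2: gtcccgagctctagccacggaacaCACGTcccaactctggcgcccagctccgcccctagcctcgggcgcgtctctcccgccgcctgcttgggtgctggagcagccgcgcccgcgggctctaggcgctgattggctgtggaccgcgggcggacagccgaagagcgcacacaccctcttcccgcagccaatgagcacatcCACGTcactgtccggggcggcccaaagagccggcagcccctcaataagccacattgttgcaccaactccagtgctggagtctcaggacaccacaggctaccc

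Gpi1 turns glucose phosphate into fructose phosphate, and its difference of -0.38 ± 0.13 (SE) did not pass (adjusted p = 0.0655), with all 3 of its features negative. Phosphofructokinase commits the sugar to glycolysis. Pfkl, its liver-type subunit, fell by 1.09 ± 0.16 averaged over genotypes, 2.13-fold (adjusted p = 0.000485). Pfkl stood at 5.60 and 5.54 in Fgf10+/- hyperoxia, against 6.99, 6.63, 6.93 and 7.05 in Fgf10+/- normoxia. In wild-type hyperoxia the lowest, median and highest were 5.55, 6.14 and 6.21, against 6.53, 7.08, 7.25 and 6.57 in wild-type normoxia. The hyperoxia and normoxia samples did not overlap, and the Fgf10+/- hyperoxia samples were among the lowest. The fall passed in Fgf10+/- (-1.33 ± 0.26, adjusted p = 0.0168) and in wild type (-0.85 ± 0.20, adjusted p = 0.0235). The Fgf10+/- call was lost without either hyperoxia sample, and the wild-type call without wild-type normoxia sample 2 or 3 and with arrays centred on the named genes (-0.74, adjusted p = 0.0649). Averaged over genotypes it passed in all 16 fits that left out 1 sample and in 9 of 9 other settings, the one without the T cell-rich libraries included (-1.15, adjusted p = 0.0228). The Pfkl window, chr10:78009758-78010057 on the minus strand, holds 1 core of the GCGTG form.
Pfkl: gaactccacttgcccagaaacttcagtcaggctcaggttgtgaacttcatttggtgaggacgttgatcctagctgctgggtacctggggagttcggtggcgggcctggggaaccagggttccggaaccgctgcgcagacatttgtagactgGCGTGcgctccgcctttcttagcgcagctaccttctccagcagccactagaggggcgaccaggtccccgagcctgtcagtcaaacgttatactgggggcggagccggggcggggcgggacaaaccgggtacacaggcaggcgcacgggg

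The other phosphofructokinase genes did not pass. Pfkp, the platelet-type subunit, showed 0.27 ± 0.15 (SE, adjusted p = 0.296), opposite in sign to Pfkl, and Pfkfb3, which makes the activator of phosphofructokinase, showed -0.34 ± 0.16 (adjusted p = 0.201). Aldolase A (Aldoa) splits the sugar, and its difference was -0.18 ± 0.15 (adjusted p = 0.503). Triose phosphate isomerase (Tpi1) fell by 0.50 ± 0.15, 1.41-fold (adjusted p = 0.0381). Tpi1 levels were 10.18 and 10.06 in Fgf10+/- hyperoxia, against 10.59, 10.86, 10.39 and 10.76 in Fgf10+/- normoxia. Wild-type hyperoxia had a lowest, median and highest of 9.83, 9.96 and 10.19, against 10.48, 10.22, 10.19 and 10.89 in wild-type normoxia. The hyperoxia samples lay at or under 10.19, the level of the lowest normoxia sample. This call was the least steady, passing in 7 of 16 fits that left out 1 sample. It did not pass without the T cell-rich libraries (-0.29, adjusted p = 0.404) or without wild-type normoxia samples 1 and 4 (-0.38, adjusted p = 0.126).

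Gapdh, the dehydrogenase that is often taken as a constant reference, fell by 0.51 ± 0.13 (SE), 1.42-fold (adjusted p = 0.018). Its level was 13.25 and 13.23 in Fgf10+/- hyperoxia, against 13.98, 14.11, 13.72 and 14.04 in Fgf10+/- normoxia. In wild-type hyperoxia the lowest, median and highest were 13.17, 13.46 and 13.66, against 13.62, 13.78, 13.84 and 13.69 in wild-type normoxia. The Fgf10+/- samples separated completely and the wild-type samples overlapped slightly. Gapdh had 8 features, the most of any member, and all 8 differences were negative, from -1.21 to -0.34, with 6 called. The third brightest moved most, at 11.66 and 11.78 in Fgf10+/- hyperoxia, against 12.84 to 13.32 in Fgf10+/- normoxia. It passed in Fgf10+/- (-1.4 ± 0.24, limma adjusted p = 0.0101) and in wild type (-1.02 ± 0.18, adjusted p = 0.00593), both over all features. No other Gapdh feature passed within a genotype. The call on the brightest feature was lost without either Fgf10+/- hyperoxia sample, and without the T cell-rich libraries (-0.39, adjusted p = 0.269).

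Downstream of Gapdh, the 4 members Pgk1, Pgam1, Eno1 and Ldha had negative differences that did not pass. These were -0.41 ± 0.20 (SE) for phosphoglycerate kinase Pgk1 (adjusted p = 0.218), -0.29 ± 0.13 for phosphoglycerate mutase Pgam1 (adjusted p = 0.186) and -0.30 ± 0.13 for enolase Eno1 (adjusted p = 0.158). Ldha, which turns pyruvate into lactate, showed -0.14 ± 0.14 (adjusted p = 0.604), with an interval of -0.44 to 0.16. All 3 Ldha features were negative.

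**Figure D2:**
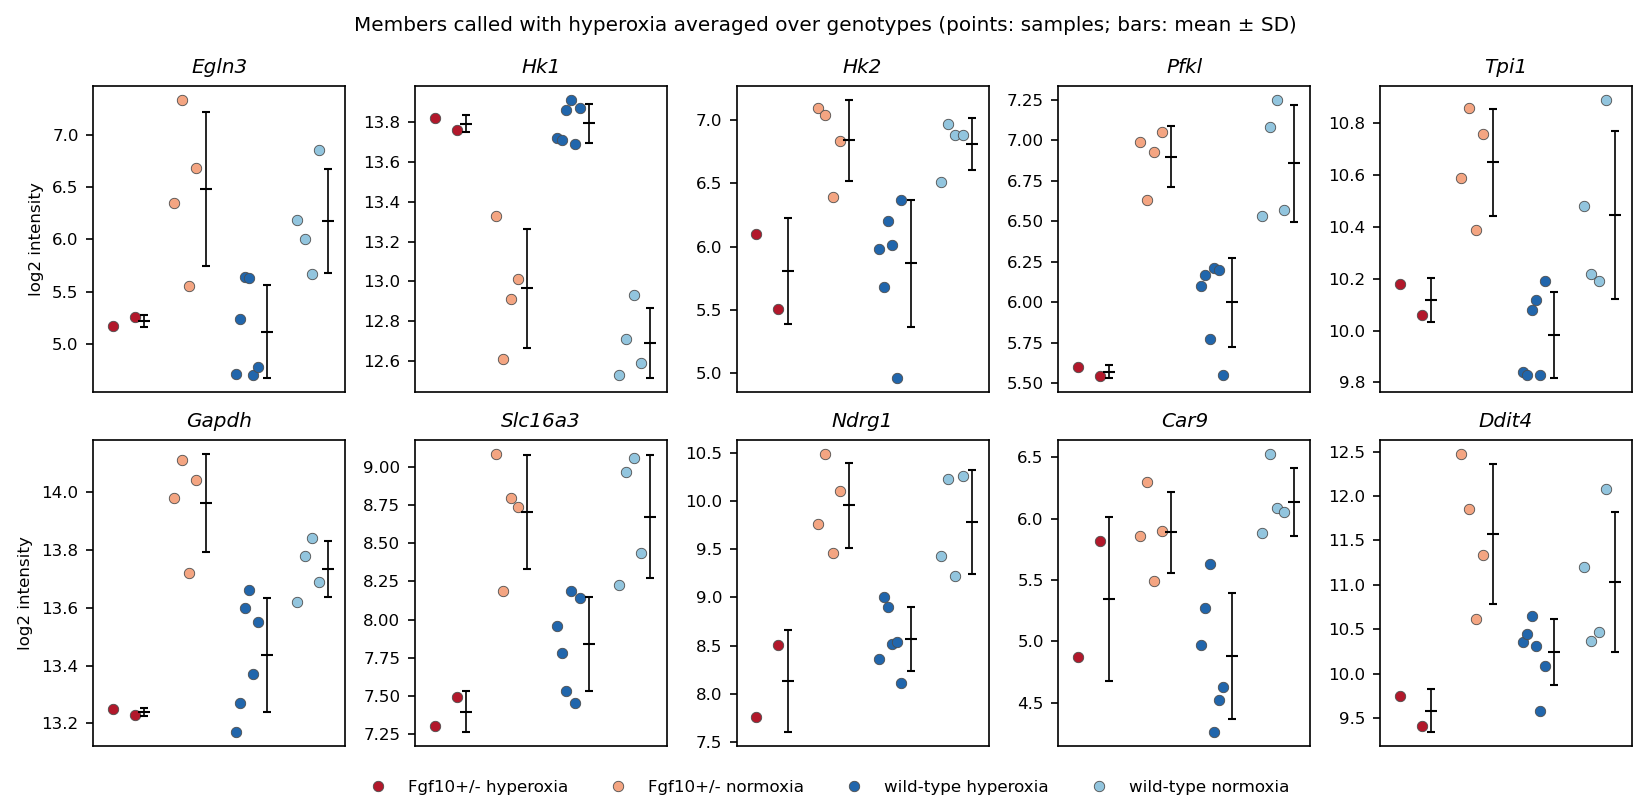
Level of the 10 members called with hyperoxia averaged over genotypes (log2 intensity, y axis), 1 point per sample, with mean ± SD beside each group; from left to right the groups are Fgf10+/- hyperoxia, Fgf10+/- normoxia, wild-type hyperoxia and wild-type normoxia. Hk1 is higher in hyperoxia and the other 9 are lower, with all hyperoxia apart from all normoxia samples for Hk1, Hk2, Pfkl and Ndrg1 and meeting at 10.19 for Tpi1.

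Of the other HIF targets, 4 of 15 fell averaged over genotypes and 0 rose. Ndrg1, a stress-induced gene linked to differentiation, had the largest fall among the 33 members in this comparison: -1.52 ± 0.23 (SE), 2.86-fold (limma adjusted p = 0.000508). Its level was 7.76 and 8.51 in Fgf10+/- hyperoxia, against 9.76, 10.49, 9.46 and 10.10 in Fgf10+/- normoxia. In wild-type hyperoxia the lowest, median and highest were 8.11, 8.53 and 9.0, against 9.43, 10.23, 9.22 and 10.26 in wild-type normoxia. All 8 hyperoxia samples were under all 8 normoxia samples. The fall passed in Fgf10+/- (-1.82 ± 0.37, adjusted p = 0.0174) and in wild type (-1.21 ± 0.27, adjusted p = 0.0211). The Fgf10+/- call was lost without Fgf10+/- hyperoxia sample 1, and the wild-type call without wild-type normoxia sample 2 or 4, or 1 and 4 together (-1.16, adjusted p = 0.117). With the T cell marker mean as a covariate Ndrg1 did not pass in Fgf10+/- (-1.35, adjusted p = 0.118) or in wild type (-0.91, adjusted p = 0.0992). Without the T cell-rich libraries it was -1.19 averaged over genotypes (adjusted p = 0.0537).

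Slc16a3, the carrier that exports lactate from glycolytic cells, fell by 1.07 ± 0.19 (SE), 2.10-fold (adjusted p = 0.00207). Slc16a3 stood at 7.30 and 7.49 in Fgf10+/- hyperoxia, against 9.09, 8.19, 8.80 and 8.74 in Fgf10+/- normoxia. Wild-type hyperoxia had a lowest, median and highest of 7.45, 7.87 and 8.19, against 8.23, 8.97, 9.06 and 8.44 in wild-type normoxia. Samples separated within each genotype, and the highest wild-type hyperoxia sample matched the lowest Fgf10+/- normoxia sample at 8.19. The second feature of the gene fell as well (-1.03 ± 0.17, adjusted p = 0.00107 over all features). Averaged over genotypes, Slc16a3 passed in all 16 fits that left out 1 sample and in 9 of 9 other settings, at -1.16 without the T cell-rich libraries (adjusted p = 0.0338). In the single genotypes it passed in Fgf10+/- (-1.31 ± 0.31, adjusted p = 0.0332) and not in wild type (-0.83 ± 0.23, adjusted p = 0.0577), and the Fgf10+/- call survived 1 of 6 fits that left out a sample. The second feature passed in Fgf10+/- (-1.18 ± 0.27, adjusted p = 0.0342) and in wild type (-0.89 ± 0.20, adjusted p = 0.0244), both over all features. The Slc16a3 window, chr11:120948817-120949116 on the plus strand, holds 2 ACGTG cores.
Slc16a3: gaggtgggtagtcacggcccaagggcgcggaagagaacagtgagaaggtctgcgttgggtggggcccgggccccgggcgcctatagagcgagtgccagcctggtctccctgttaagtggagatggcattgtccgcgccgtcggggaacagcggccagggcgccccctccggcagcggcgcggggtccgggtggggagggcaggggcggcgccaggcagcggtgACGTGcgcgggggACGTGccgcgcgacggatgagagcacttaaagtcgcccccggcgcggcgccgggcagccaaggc

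Ddit4 encodes an inhibitor of mTOR signalling that is induced by many stresses. It fell by 1.39 ± 0.30 (SE) averaged over genotypes, 2.62-fold (adjusted p = 0.00753). The level was 9.75 and 9.41 in Fgf10+/- hyperoxia, against 12.48, 11.85, 10.62 and 11.34 in Fgf10+/- normoxia. In wild-type hyperoxia the lowest, median and highest were 9.58, 10.33 and 10.65, against 11.20, 10.37, 10.47 and 12.08 in wild-type normoxia. Fgf10+/- samples separated and wild-type samples overlapped. The 4 highest normoxia samples, 11.34 to 12.48, were the 4 highest in T cell markers, against 10.37 to 11.20 in the other 4. Without them the Ddit4 difference was -0.74 (adjusted p = 0.177), and with the marker mean as a covariate it was -0.68 (adjusted p = 0.193). The averaged call was also lost without Fgf10+/- hyperoxia sample 2. The fall passed in Fgf10+/- (-1.99 ± 0.48, adjusted p = 0.0412) in 1 of 6 fits that left out a sample, and did not pass in wild type (-0.79 ± 0.36, adjusted p = 0.257). The Ddit4 window, chr10:59951721-59952020 on the minus strand, holds 1 core of each form.
Ddit4: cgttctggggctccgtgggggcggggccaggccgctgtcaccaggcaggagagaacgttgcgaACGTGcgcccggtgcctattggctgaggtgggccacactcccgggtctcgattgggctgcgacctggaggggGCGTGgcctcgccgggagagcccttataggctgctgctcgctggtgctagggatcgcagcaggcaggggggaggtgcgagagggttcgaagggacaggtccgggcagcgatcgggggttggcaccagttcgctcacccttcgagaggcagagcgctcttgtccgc

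Car9, a membrane carbonic anhydrase that handles acid at the cell surface, fell by 0.90 ± 0.23 (SE), 1.87-fold (adjusted p = 0.0182). It stood at 4.87 and 5.82 in Fgf10+/- hyperoxia, against 5.86, 6.30, 5.49 and 5.90 in Fgf10+/- normoxia. The lowest, median and highest in wild-type hyperoxia were 4.26, 4.80 and 5.63, against 5.88, 6.53, 6.09 and 6.05 in wild-type normoxia. Wild-type samples separated and Fgf10+/- samples overlapped. The fall passed in wild type (-1.26 ± 0.27, adjusted p = 0.0172) and not in Fgf10+/- (-0.54 ± 0.37, adjusted p = 0.50). The interaction test of these differences did not pass (0.72 ± 0.46, unadjusted p = 0.136), with an interval of -0.25 to 1.68. The averaged call was lost without Fgf10+/- hyperoxia sample 1 (-1.14 to -0.66 over the 16 fits that left out 1 sample) and without the T cell-rich libraries (-0.72, adjusted p = 0.274), and the wild-type call without wild-type normoxia sample 2, without samples 1 and 4 together (-1.43, adjusted p = 0.0677) and with the T cell marker mean as a covariate (-1.13, adjusted p = 0.075). The Car9 window, chr4:43506776-43507075 on the plus strand, holds 1 core, on the opposite strand.
Car9: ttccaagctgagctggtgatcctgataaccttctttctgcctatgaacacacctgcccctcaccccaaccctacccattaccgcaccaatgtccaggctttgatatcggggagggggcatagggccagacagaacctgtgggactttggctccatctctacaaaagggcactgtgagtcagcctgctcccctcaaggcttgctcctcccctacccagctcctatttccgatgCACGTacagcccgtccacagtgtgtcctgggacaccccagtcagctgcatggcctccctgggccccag

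The remaining 11 targets did not pass in any comparison. Adm, a vasodilator peptide, came nearest, at -0.70 ± 0.24 (SE, adjusted p = 0.0676) averaged over genotypes. Slc2a1, the main glucose carrier of many cells, showed -0.31 ± 0.22 (adjusted p = 0.423). Pdk1, a kinase that inhibits pyruvate dehydrogenase, showed -0.24 ± 0.26, and the ankyrin repeat gene Ankrd37 showed -0.20 ± 0.20. Mxi1, a MYC antagonist and dim here, showed -0.18 ± 0.24. The mitochondrial genes Bnip3, which promotes mitophagy, and Higd1a, a respiratory chain factor, showed 0.07 ± 0.17 and -0.01 ± 0.16. The histone demethylase gene Kdm3a showed -0.03 ± 0.13. Differences were positive for the collagen prolyl hydroxylases P4ha1 (0.26 ± 0.16) and P4ha2 (0.25 ± 0.16) and for Vegfa (0.24 ± 0.26). All 3 Vegfa features lay between 0.21 and 0.26, so none of the 3 was negative, with an interval of -0.31 to 0.79 on the brightest.

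The glycolytic enzymes and the other HIF targets are set side by side next, as a description with no test. Averaged over genotypes, 11 of 13 glycolytic enzymes and 11 of 15 other HIF targets had negative differences, with medians of -0.34 and -0.20, against -0.06 over all genes. In Fgf10+/- the medians were -0.39 for glycolytic enzymes and -0.28 for other targets, against -0.04 over all genes. In wild type they were -0.25 and -0.16, against -0.08. Centring the arrays on the median of the named genes moved these contrasts up by 0.10 to 0.11, so the wild-type median of the other targets became -0.04 and that of all genes 0.03. Among other HIF targets, 3 of 15 were past 1 on the log2 scale and 10 of 15 were within 0.5 of 0, and the middle part of the list ran from -0.80 to 0.03 between quartiles. Among glycolytic enzymes 1 of 13 was past 1 and 9 were within 0.5, with quartiles of -0.50 and -0.18.

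Taken sample by sample, the median deviation of the 13 glycolytic enzymes from their own 16-sample means ran from -0.31 to -0.05 in the 8 hyperoxia samples, against -0.16 to 0.37 in the 8 normoxia samples. Only wild-type normoxia sample 3, at -0.16, fell among the hyperoxia values. For the 15 other targets the ranges were -0.44 to 0.04 in hyperoxia and -0.06 to 0.25 in normoxia, which overlap. The highest enzyme median, 0.37, was that of Fgf10+/- normoxia sample 2, which had a T cell marker mean of 7.05. Enzyme medians were 0.21 to 0.37 in the 4 normoxia samples highest in T cell markers, against -0.16 to 0.15 in the other 4. For the other targets they were -0.06 to 0.21 in those samples, against 0.02 to 0.25. The part of T cell markers in these medians was not tested. Medians of all genes stayed between -0.08 and 0.06.

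**Figure D3:**
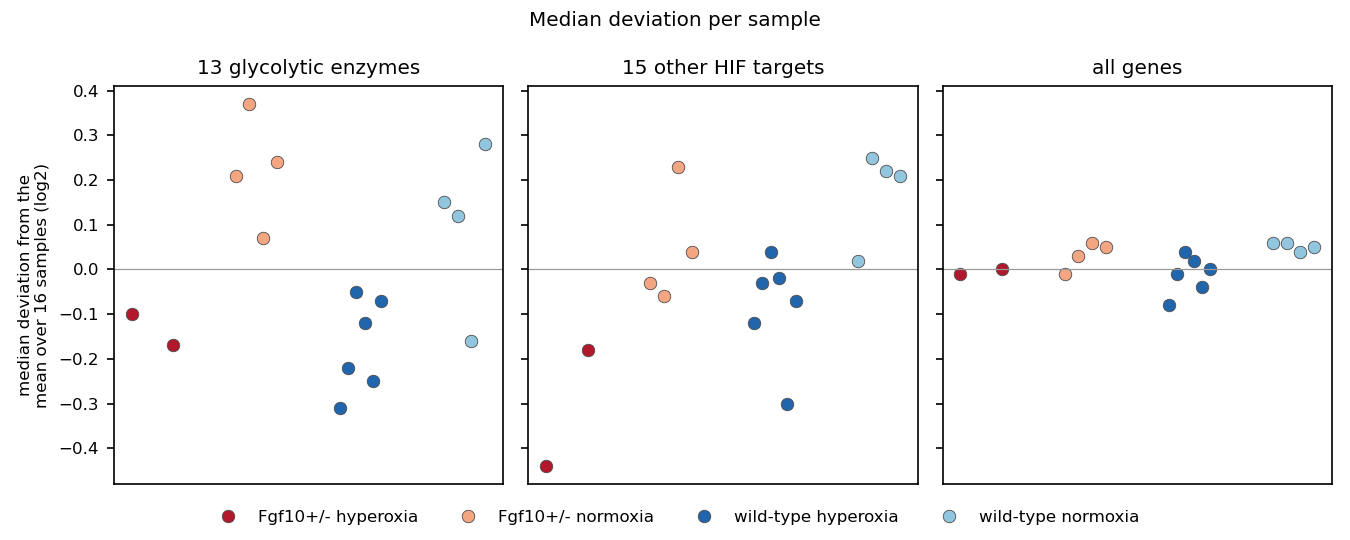
Median deviation of each sample from the 16-sample mean (log2, y axis) for 13 glycolytic enzymes, 15 other HIF targets and all genes; each point is 1 sample and colours give the group, from left to right Fgf10+/- hyperoxia, Fgf10+/- normoxia, wild-type hyperoxia and wild-type normoxia. Enzyme medians are all below 0 in hyperoxia and above 0 in 7 of 8 normoxia samples, while all-gene medians stay within -0.08 to 0.06.

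Several features per gene allow a check within the arrays. The 33 members had 59 features, 19 members with 1 and 14 with several. In the fit over all 31439 named features, 16 member features fell and 1 rose averaged over genotypes, against 5.43% and 4.24% of all features. Both Egln3 features fell (-1.16 and -1.21), as did both of Slc16a3 and 6 of 8 of Gapdh. Hk1 was the gene whose called feature had partners of the opposite sign. Among genes with no call, Epas1 ran from -0.25 to 0.46 and Bnip3 from -0.26 to 0.47 across 3 features each. Where features of 1 gene disagree in this way, the value of the gene depends on which feature stands for it.

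**Figure D4:**
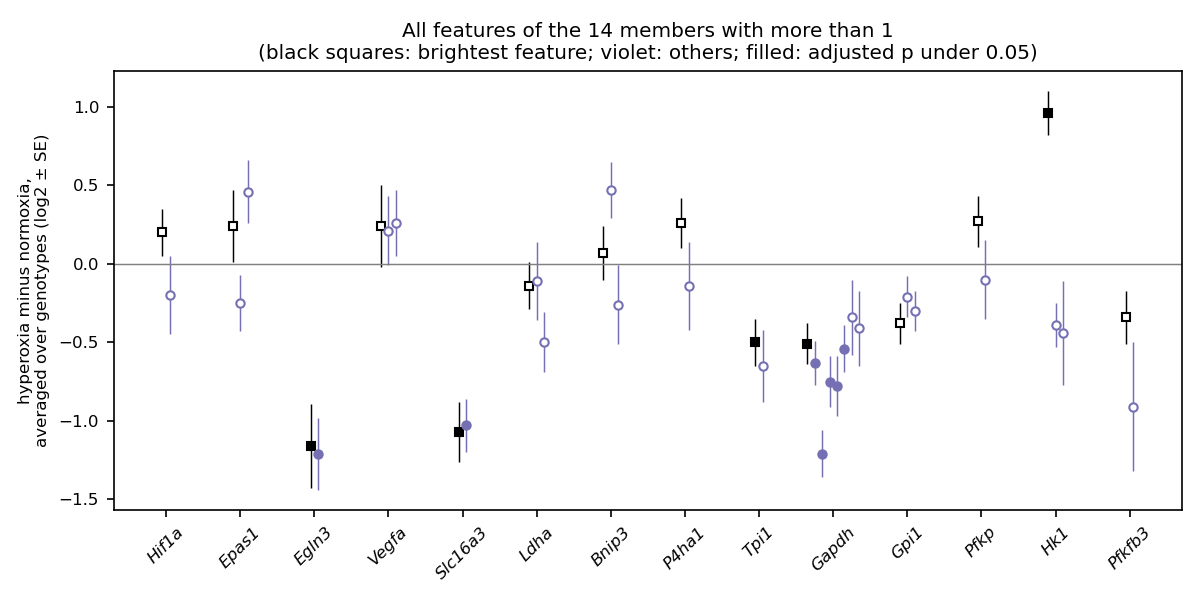
Hyperoxia minus normoxia averaged over genotypes (log2 ± SE, y axis) for every feature of the 14 members with several features (x axis); black squares are the brightest feature, violet circles the others, and filled symbols passed an adjusted p of 0.05. The 8 Gapdh features all lie below 0, and the brightest Hk1 feature at 0.96 stands above its 2 partners, which lie below 0.

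Markers of other cell types also differed with oxygen in these samples. The T cell and thymocyte mean was 4.55 and 4.64 in Fgf10+/- hyperoxia, against 4.57 to 7.05 in Fgf10+/- normoxia, and 4.31 to 4.93 in wild-type hyperoxia, against 4.78 to 7.09 in wild-type normoxia. The T cell receptor component Cd3e reached 10.42 in Fgf10+/- normoxia and 10.39 in wild-type normoxia, against at most 6.88 and 7.74 in the hyperoxia groups of the same genotypes. Not every marker of the list moved this way. Arpp21 averaged 4.44 in Fgf10+/- hyperoxia, against 4.26 in Fgf10+/- normoxia. In wild type Arpp21 moved with the list, averaging 3.56 in hyperoxia, against 4.02 in normoxia. Rag2 moved with the list as well, averaging 3.93 in wild-type hyperoxia, against 4.20 in wild-type normoxia. Mitosis markers, 9 of 10 measured, averaged 5.76 to 5.88 in Fgf10+/- hyperoxia, against 6.74 to 7.54 in Fgf10+/- normoxia. In wild type they averaged 5.50 to 6.97 in hyperoxia, against 6.19 to 7.42 in normoxia. Club and secretory markers averaged 10.86 to 12.78 in Fgf10+/- hyperoxia, against 13.57 to 14.50 in Fgf10+/- normoxia, and overlapped in wild type, at 9.93 to 14.18 in hyperoxia, against 12.17 to 14.53 in normoxia. Macrophage and granulocyte markers, 11 of 12 measured, averaged 7.63 to 7.79 in Fgf10+/- hyperoxia, against 7.20 to 7.54 in Fgf10+/- normoxia, and 7.77 to 8.72 in wild-type hyperoxia, against 7.23 to 8.13 in wild-type normoxia. Smooth muscle, pericyte and fibroblast markers, 12 of 12 measured, averaged 8.58 to 8.94 in Fgf10+/- hyperoxia, against 7.89 to 8.55 in Fgf10+/- normoxia, and 8.38 to 9.44 in wild-type hyperoxia, against 7.60 to 10.29 in wild-type normoxia. B cell markers, 4 of 5 measured, averaged 5.37 to 5.50 in Fgf10+/- hyperoxia, against 4.76 to 5.07 in Fgf10+/- normoxia, and 4.86 to 5.88 in wild-type hyperoxia, against 5.05 to 6.68 in wild-type normoxia. All of these lists overlapped in wild type. In Fgf10+/- they separated, except the T cell and thymocyte list, where normoxia sample 3 lay between the 2 hyperoxia samples. Endothelial markers, given below with Flt1, also separated in Fgf10+/- and overlapped in wild type. Ciliated, erythroid and alveolar type I marker means overlapped in both genotypes. In Fgf10+/- they ran from 8.44 to 9.03, 7.85 to 8.12 and 9.85 to 10.81 in hyperoxia. The Fgf10+/- normoxia ranges were 8.75 to 9.95, 6.71 to 8.06 and 9.80 to 10.59. The erythroid marker Hba-a1 was strong, with group means from 14.91 in wild-type normoxia to 15.87 in Fgf10+/- hyperoxia. Egln3, Ddit4 and Tpi1 were the members whose 4 highest normoxia samples were exactly the 4 highest in T cell markers. Of the other called members, Ndrg1 and Gapdh shared 3 of 4, Hk1, Hk2, Pfkl and Car9 shared 2 and Slc16a3 shared 1. The same counts were not made over all genes, so whether these are unusual was not tested. With the marker mean as a covariate, Hk1, Ndrg1, Pfkl and Slc16a3 passed averaged over genotypes, 4 in all. The part of the mitosis, club cell, macrophage, smooth muscle, B cell, endothelial, ciliated, erythroid and alveolar type I markers in the result was not tested.

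**Figure D5:**
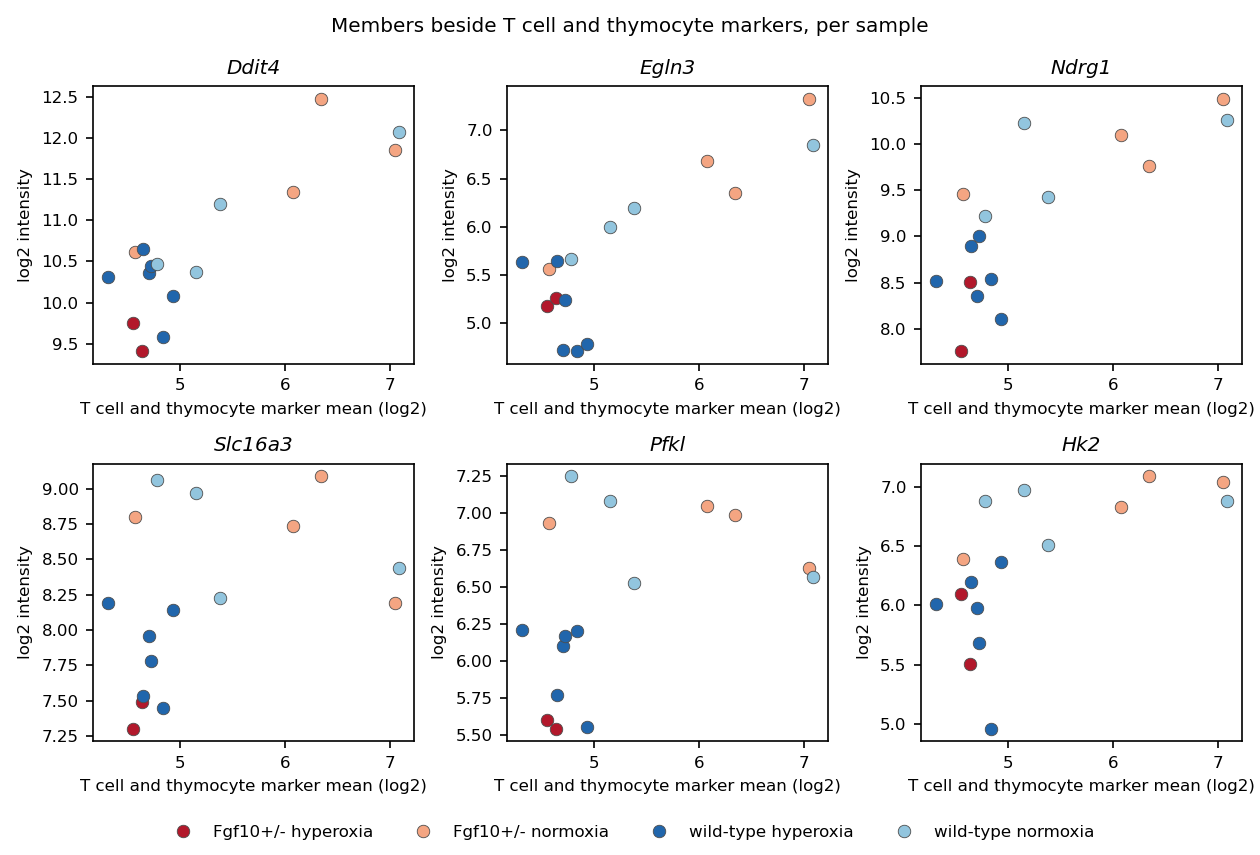
Level of 6 members (log2 intensity, y axis) against the mean of 12 T cell and thymocyte markers (log2, x axis), 1 point per sample, coloured by group. Ddit4 and Egln3 are highest in the 4 samples with marker means of 6.08 to 7.09, whereas Slc16a3 and Pfkl reach 9.06 and 7.25 in normoxia samples with means of at most 5.38.

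Genotype was compared within each oxygen condition. In normoxia, 0 of 33 members were called between Fgf10+/- and wild type by limma, against 0.00965% of all genes (2 of 20725). At an unadjusted p under 0.05 the count was 3 of 33 members, namely Kdm3a, Vegfa and Hif1a, and 1250 of 20725 genes. Kdm3a was 7.60, 7.95, 7.98 and 7.86 in Fgf10+/- normoxia, against 8.46, 8.46, 8.13 and 8.32 in wild-type normoxia. The 2 groups did not overlap, but the difference of -0.49 ± 0.17 (SE) did not pass (adjusted p = 0.633). Vegfa was 11.90, 10.94, 11.74 and 11.37 in Fgf10+/- normoxia, against 10.20, 10.53, 11.32 and 9.94 in wild-type normoxia. The groups overlapped, and 0.99 ± 0.34 did not pass (adjusted p = 0.644). The other Vegfa features differed less: the second ran from 10.56 to 11.51 in Fgf10+/- normoxia, against 10.29 to 11.28 in wild-type normoxia, and the third from 10.39 to 11.30, against 9.98 to 10.99. Hif1a was 6.16, 6.10, 5.93 and 6.49 in Fgf10+/- normoxia, against 6.92, 6.54, 6.48 and 6.42 in wild-type normoxia, with a difference of -0.42 ± 0.20 (adjusted p = 0.82) and overlap at the edge. The dim second Hif1a feature lay the other way, averaging 4.09 ± 0.41 in Fgf10+/- normoxia and 3.72 ± 0.46 in wild-type normoxia (SD, n = 4 each).

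In hyperoxia, 0 of 33 members were called between genotypes, against 0% of all genes, and 1 of 33 members had an unadjusted p under 0.05, as did 906 of 20725 genes. This was again Kdm3a, at 7.73 and 7.97 in Fgf10+/- hyperoxia, against a lowest, median and highest of 8.06, 8.29 and 8.45 in wild-type hyperoxia. The groups did not overlap, and the difference was -0.44 ± 0.19 (SE, limma adjusted p = 1). Vegfa was 12.01 and 11.16 in Fgf10+/- hyperoxia, against a lowest, median and highest of 10.25, 10.82 and 11.74 in wild-type hyperoxia (0.71 ± 0.39, adjusted p = 1), with overlap. The Pfkl difference was -0.43 ± 0.25 (adjusted p = 1). In normoxia the median over the 13 glycolytic enzymes was 0.12 and over the other 15 targets -0.15, against -0.01 over all genes. In hyperoxia the medians were 0.00 for the enzymes and -0.30 for the other targets, against 0.02 over all genes.

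The interaction of genotype and hyperoxia called 0 of 33 members by limma, against 0.00965% of all genes, and 0 members had an unadjusted p under 0.05, against 852 of 20725 genes. The smallest p among the members was that of Ddit4, whose hyperoxia difference was -1.99 in Fgf10+/- and -0.79 in wild type. The difference between these, -1.20 ± 0.60 (SE), did not pass (unadjusted p = 0.0642), and its interval ran from -2.48 to 0.08. Next came Gapdh at -0.42 ± 0.26 (unadjusted p = 0.121) and Car9 at 0.72 ± 0.46 (unadjusted p = 0.136). With 2 Fgf10+/- hyperoxia samples these intervals are wide, and a p that misses the threshold does not show that the genotypes respond alike.

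Genes of the same pathway outside the 33 were read from lists of HIF pathway components, further HIF targets and further glycolysis and pyruvate genes. Averaged over genotypes 6.14% of all genes fell and 4.97% rose, with a median of -0.06. Of 16 components measured, 1 fell and 1 rose, shares near those of all genes. Cited2, a HIF target whose protein competes with HIF for its coactivators, fell by 1.24 ± 0.18 (SE, limma adjusted p = 0.000365). Cited2 levels were 8.97 and 8.13 in Fgf10+/- hyperoxia, against 10.40, 9.86, 10.09 and 10.11 in Fgf10+/- normoxia. In wild-type hyperoxia its lowest, median and highest were 8.80, 9.10 and 9.45, against 9.70 to 10.58 in wild-type normoxia. All hyperoxia samples were under all normoxia samples, and the fall passed in Fgf10+/- (-1.57, adjusted p = 0.0112) and wild type (-0.91, adjusted p = 0.0283). Those calls were kept in 5 of 6 and 5 of 10 fits that left out a sample. Crebbp, such a coactivator, rose in wild type by 1.08 ± 0.28 (adjusted p = 0.0441), at 10.16 to 11.44 in wild-type hyperoxia, against 9.33 to 10.37 in wild-type normoxia, and the call was kept in 3 of 10 such fits.

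Of 43 further HIF targets measured, 5 fell and 4 rose averaged over genotypes, against 6.14% and 4.97% of all genes, with a median of -0.15, against -0.06 over all genes. Flt1, a receptor for Vegfa, rose by 1.43 ± 0.29 (SE, limma adjusted p = 0.00434) and the lipoprotein receptor gene Vldlr by 1.40 ± 0.29 (adjusted p = 0.00519). With the mean of all its features the Flt1 difference was 0.72 and did not pass (adjusted p = 0.061). Flt1 is also an endothelial gene, and endothelial markers, 12 of 12 measured, averaged 8.22 to 9.47 in Fgf10+/- hyperoxia, against 7.46 to 7.92 in Fgf10+/- normoxia. In wild type they averaged 8.30 to 9.47 in hyperoxia, against 8.21 to 8.68 in normoxia, and their part in the Flt1 result was not tested. Sap30, a subunit of a histone deacetylase complex, fell by 0.83 ± 0.19 (adjusted p = 0.0112). Bhlhe41, a transcriptional repressor, fell in wild type by 0.88 ± 0.23 (adjusted p = 0.0476), a call kept in 2 of 10 fits that left out a sample.

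Of 32 further glycolysis and pyruvate genes measured, 5 fell and 2 rose averaged over genotypes, against 6.14% and 4.97% of all genes. Their median of -0.07 was near the -0.06 of all genes, and 56.2% were negative, against 56.5%. Pgam2, the muscle-type phosphoglycerate mutase, fell by 1.38 ± 0.25 (SE, limma adjusted p = 0.0022) and passed in wild type as well (-1.45, adjusted p = 0.0115). Pkm, the pyruvate kinase that completes glycolysis, fell by 0.61 ± 0.13 (adjusted p = 0.00598). Its level was 10.46 and 10.30 in Fgf10+/- hyperoxia, against 11.06, 11.32, 10.79 and 11.02 in Fgf10+/- normoxia. In wild-type hyperoxia the lowest, median and highest Pkm levels were 10.18, 10.34 and 10.45, against 10.85, 10.89, 10.68 and 11.09 in wild-type normoxia. Hyperoxia and normoxia samples did not overlap. Slc2a4, an insulin-responsive glucose carrier, fell in Fgf10+/- by 1.18 ± 0.30 (adjusted p = 0.0477), a call that 0 of 6 fits without a sample kept. Cited2 kept its averaged call without the T cell-rich libraries, and Pgam2, Pkm, Flt1, Vldlr and Sap30 lost theirs.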

How the data were processed

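The authors deposited log2 intensities, 1 per feature and sample, on a scale read from the values (-0.4 to 15.98); no source used here names the software or background correction, and neither detection flags nor slides were labelled. Sorted arrays differed by at most 0.204 at any rank, so the table was already normalized to 1 distribution. Of 62976 features, 65 with a missing value were dropped, and 31439 were named through the platform annotation and RefSeq GRCm38.p6 tables, covering 20725 genes by their brightest feature. The 4 group means were fitted with limma 3.58.1 under R 4.3.3 on all 16 samples, two-sided, with Benjamini-Hochberg adjustment over all genes and a call at 0.05. This step was checked on simulated data. Precision is limited by the number of arrays. In deposit order all 8 normoxia samples come before all 8 hyperoxia samples. If arrays were processed in that order, an effect of order cannot be told apart from hyperoxia. The members, pathway lists and marker lists were chosen with earlier results of these data known. Values per sample are given for members called in any contrast and the 3 with the smallest p in each, and up to 6 called genes per contrast are named from the pathway lists. Alternatives were median centring, the mean of all features, a filter on dim genes, only the groups compared, trended and robust eBayes, a replicate block, T cell markers as a covariate, samples left out and, added after seeing the data, centring on the named genes, a fit of all features and leaving out wild-type normoxia libraries 1 and 4. Correlations of same-numbered deviations ran from -0.16 to 0.24. Differently numbered samples were not correlated, so this range cannot show whether replicate numbers pair the samples.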

Additional observations from a re-analysis of the deposited data

Results flagged for a closer look

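In 2 of 126 groups of 4 to 6 samples tested, 1 sample stood far from the others, and chance marks about 1 group in 20. P4ha2 was 7.64 in wild-type normoxia sample 2, against 7.24 to 7.27 in the other 3 samples of that group. Pfkp was 6.46 in wild-type normoxia sample 1, against 5.93 to 5.99 in the other 3, and that sample also had the highest smooth muscle, pericyte and fibroblast marker mean, 10.29. Neither gene was called in any comparison.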

How the results depend on the processing

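Of the 10 members called averaged over genotypes, 4 were called with T cell markers as a covariate, 3 without the 4 libraries highest in those markers, and 6 to 10 when 1 sample was left out. The Fgf10+/- count of 4 was 0 with only the groups compared, 1 with the replicate block, 2 with the covariate, 0 without the 4 libraries and 0 to 4 when 1 sample was left out. The wild-type count of 4 was 7 with a filter on dim genes, which tested 10362 genes and left out Egln1 and Mxi1, 1 with the replicate block, 1 without the 4 libraries and 1 to 5 when 1 sample was left out. Replicate numbers mark no known pairing, so the replicate block is given here alone. Centring on the named genes gave -0.29 for the glycolytic median in Fgf10+/- and -0.04 for the other HIF targets in wild type. Leaving out 1 sample moved the median of the other targets between -0.47 and -0.09 in Fgf10+/- and between -0.27 and -0.04 in wild type. Hk1 in wild type was -0.02 with the mean of its features (limma adjusted p = 0.967), which takes in the 2 of opposite sign, against 1.10 with the brightest. Genotype and interaction counts stayed at 0 in all settings run. Where 1 sample was left in a group, it was assumed to vary like the others. The causes of the other shifts were not tested. Fits with fewer samples can lose calls for any gene, and the share of all genes called in each is not given here. The changed counts are therefore not read as a trait of the members. No detection flags came with the values, so dim members such as Egln1 and Mxi1 may lie near background.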
